A study of Rattus norvegicus with 45 samples.

Results

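The genes described here encode the machinery with which a cell copies its DNA and divides. They were taken as the platform's probe sets whose gene symbol was one of 50 listed cell-cycle and mitosis genes, with no filter on expression. Of these, 45 genes were found among the 14217 genes with a named probe set, on 62 of 31042 probe sets. They comprised 11 of 13 replication genes, 27 of 30 mitosis genes and all 7 of a set of further proliferation genes. Cdc6, Rrm2, Anln, Tpx2 and Ncapg had no probe set with that symbol alone.

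Muscle RNA was measured in female SD rats that received methylcellulose vehicle or the statin cerivastatin, an inhibitor of HMG-CoA reductase, once a day for 14 days. Gastrocnemius gave 8 groups and 30 arrays: vehicle, 0.1, 0.5 and 1.0 mg/kg/day, each without exercise and with treadmill running (5 days a week, 20 min a day, 20 m/min). Soleus gave 4 groups and 15 arrays, with vehicle and 1.0 mg/kg/day only, again without and with running. A group held 4 arrays, or 3 in the case of both unexercised top-dose groups and of exercised gastrocnemius at the middle dose. The study asked what cerivastatin does to muscle, what exercise adds, and why fibre types differ in sensitivity. Soleus rats whose label mentions no exercise were taken as unexercised, and RNA input was 3 µg for soleus and 4 µg for gastrocnemius, so input and muscle cannot be told apart.

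Cells entering S phase load the Mcm2 to Mcm7 helicase onto DNA, and enzymes such as Tyms, Rrm1 and Tk1 supply nucleotides while the sliding clamp Pcna holds the polymerase. Cyclins with Cdk1 then drive mitosis, in which kinesins, the Aurora and Polo kinases and the checkpoint proteins Bub1b and Mad2l1 organise and supervise the spindle, and Cdc20 triggers chromosome separation. Mature muscle fibres do not divide, and in muscle these genes are known as marks of cycling satellite cells, immune cells, endothelium and fibroblasts. The arrays read whole tissue, so a change in the number of dividing cells and a change in RNA per cell cannot be told apart.

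Signals are MAS5 intensities on the authors' linear scale. Differences (± SE) are on a scale of log2(signal + 12.4), and a gene was called where limma's p, Benjamini-Hochberg adjusted over all 31042 probe sets, was under 0.05. A gene with several probe sets was read from the one with the highest mean over all 45 arrays. Each class is summarised by its count of calls and its median difference, beside the same figures for all 14217 genes.

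Across the series, actin 5' to 3' signal ratios were lowest on 3 arrays. These were the low-dose gastrocnemius arrays numbered 3 of unexercised (0.116) and exercised (0.248) rats, and the first of the exercised soleus arrays that received 1.0 mg/kg/day (0.245). The fast-fibre genes Tnnt3 and Myh4 were lower in unexercised vehicle soleus than in gastrocnemius (limma adjusted p 0.0219 and 0.0423). Myh7, the slow myosin, was not called between the muscles (0.61 ± 1.61, limma adjusted p = 0.887). The slow troponin Tnnt1 was not called either (2.14 ± 1.30, limma adjusted p = 0.397), but every soleus array lay above every gastrocnemius array of these groups.

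In exercised rats, 1.0 mg/kg/day raised all 45 genes in the gastrocnemius, replication and mitosis genes alike. The median difference was 3.07 over the 45 genes, against -0.0015 over all genes, of which 22.9% were called higher. Replication genes had a median of 2.23 (11 of 11 called), mitosis genes 3.07 (27 of 27) and the further proliferation genes 4.78 (7 of 7). For 44 of 45 genes every treated array lay above every vehicle array, against 23% of all genes, and Mcm7 was the exception. With single arrays left out in turn, between 41 and 45 genes were called.

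**Figure D1:**
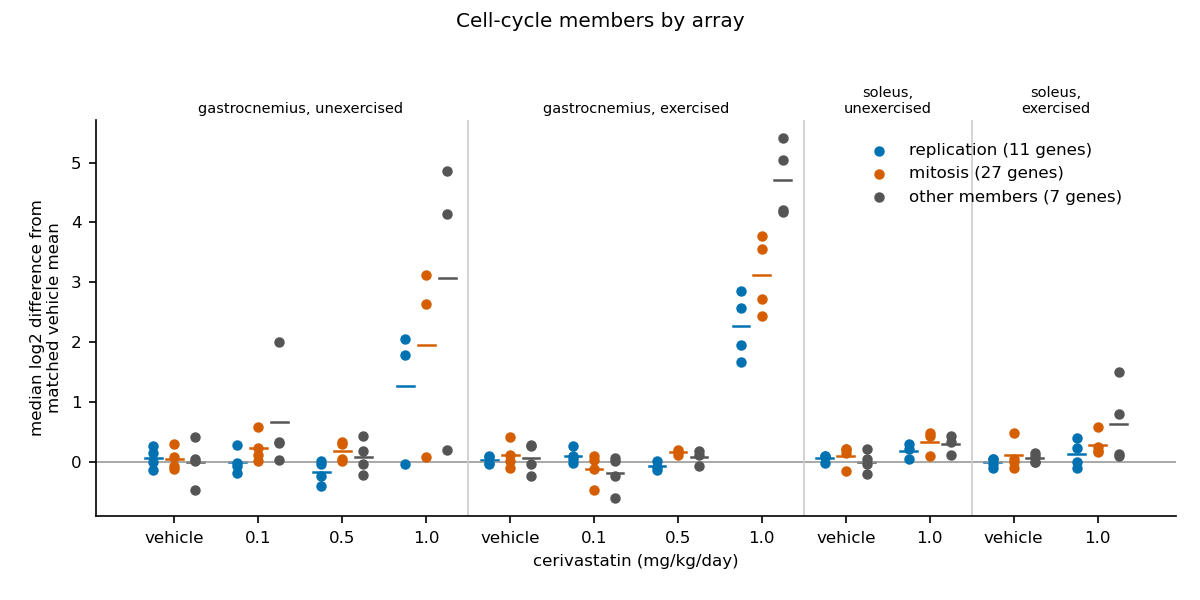
Median log2 difference from the mean of the vehicle group of the same muscle and exercise state (y axis) for each of the 45 arrays, by group (x axis, dose in mg/kg/day), with replication, mitosis and other members in separate colours and horizontal bars at group means. The 4 exercised gastrocnemius arrays at 1.0 mg/kg/day lie between 1.67 and 2.86 for replication genes and between 2.43 and 3.77 for mitosis genes, while unexercised replicate 3 at the same dose lies at -0.03 and 0.08.

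Among the replication genes, Mcm6, a subunit of the replicative helicase, had the largest difference. Its signal was 69.6, 60.1, 52.7 and 142 on exercised vehicle arrays 1 to 4, and 1344, 2600, 1102 and 2266 on the arrays at 1.0 mg/kg/day. The lowest treated array thus stood well clear of the highest vehicle array, and the difference was 4.30 ± 0.59 (limma adjusted p = 1.2e-05). Mcm3, another helicase subunit, followed at 4.03 ± 0.69, with means of 71.2 and 987. Tyms, which makes thymidylate, was near the bottom of the scale on all 4 vehicle arrays (4.3 to 18.2) and read 306.5, 538, 190.0 and 382 after treatment (3.83 ± 0.71). No Tyms value of one group reached the other.

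Mcm5 and Ccne1, the latter the cyclin that opens S phase, rose by 2.73 ± 0.37 and 2.53 ± 0.57. Mcm5 signals of 94.6 to 178 in vehicle became 808, 1489, 647 and 1230. Ccne1 read 31.4, 93.5, 80.5 and 33.6 in vehicle and 370, 483, 278 and 385 at 1.0 mg/kg/day. Both genes showed the same order as Mcm6, with treated replicate 2 highest and replicate 3 lowest. Tk1, the thymidine salvage kinase whose level falls outside S phase, rose by 2.23 ± 0.37, from 90.2 to 264 in vehicle to 605 to 1394 in treated muscle.

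The replication genes that already gave a strong signal in vehicle muscle rose least. Pcna read 2418, 2346, 2104 and 2172 on vehicle arrays and 7142, 10200, 6218 and 9494 on treated arrays, a difference of 1.84 ± 0.25 (limma adjusted p = 9.6e-06). The ribonucleotide reductase subunit Rrm1 moved from a mean of 903 ± 170 (SD, n = 4) to 1744 ± 566 (SD, n = 4), or 0.90 ± 0.23. Mcm7 had the smallest difference of all 45 genes, 0.52 ± 0.18 (limma adjusted p = 0.0294). Its treated replicate 3, at 1243, lay inside the vehicle range of 1119 to 1355.

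Among mitosis genes Kif20a and Prc1 had the largest differences. Kif20a, a kinesin of cytokinesis, read 17.9, 9.9, 7.2 and 5.8 in vehicle and 299, 1120, 342 and 899.5 after treatment (4.71 ± 0.63). Prc1, which bundles the microtubules of the spindle midzone, read 43.8, 76.1, 23.1 and 79.6 against 998, 2335, 1243 and 2566 (4.71 ± 0.63, limma adjusted p = 9.5e-06). The groups did not overlap for either gene. Kifc1, a minus-end kinesin, followed at 4.54 ± 0.74, and Aurkb, the kinase of the chromosomal passenger complex, rose by 4.46 ± 0.65. Aurkb read 40.1, 3.5, 98.1 and 2.6 in vehicle and 465, 1446, 411 and 1084 in treated muscle, so that by ratio its vehicle arrays differed among themselves more than the treated ones did.

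Cdk1, the kinase at the centre of mitotic entry, read 99.0, 29.0, 85.0 and 105 on vehicle arrays and 863, 2598, 987 and 2599 on treated arrays (4.20 ± 0.76). Its partner Ccnb1 rose by 2.37 ± 0.50 (3.55 ± 0.69 on its other probe set), from 202, 100.4, 221.5 and 190 to 686, 1397, 705 and 1145. For both genes treated replicates 2 and 4 stood above replicates 1 and 3. The survivin gene Birc5, a passenger complex subunit, had 1 high vehicle array (187, others 15.1 to 68.4) and treated values of 387, 976, 423 and 899 (3.25 ± 0.67). Plk1, the Polo kinase, went from 117 to 162 in vehicle to 535, 1408, 649 and 1170 (2.59 ± 0.60), and the spindle motor Kif11 from 55.6 to 152 to 361, 940, 559 and 869.5 (2.46 ± 0.41).

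Bub1b and Mad2l1, which hold mitosis until chromosomes are attached, rose by similar amounts. Bub1b read 15.8, 140.5, 8.0 and 84.6 in vehicle and 263, 569, 374 and 553 at 1.0 mg/kg/day (3.00 ± 0.64). Mad2l1 read 25.9, 50.9, 68.9 and 149 against 302, 894.5, 549 and 731 (2.97 ± 0.61). Their target Cdc20 rose by 2.82 ± 0.54, with vehicle signals of 61.8 to 185 and treated signals of 495, 1188, 686 and 1157. Top2a, the topoisomerase that untangles sister chromatids, rose by 2.19 ± 0.49, from 117 to 243 in vehicle to 517 to 1275. By the probe sets used, the smallest mitosis differences were those of Hmmr (1.33 ± 0.46), a spindle-associated hyaluronan receptor, the checkpoint kinase Ttk (1.66 ± 0.61) and the cytokinesis regulator Racgap1 (1.96 ± 0.64).

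The further proliferation genes held the largest differences of the whole set. Cdkn3, a phosphatase that acts on cyclin-dependent kinases, read 15.2, 65.9, 9.1 and 18.0 in vehicle and 1279, 4590, 1050 and 2619 at 1.0 mg/kg/day (5.87 ± 0.81). Mki67, the gene of the proliferation antigen Ki-67, read 116.5, 10.2, 57.4 and 43.9 against 1416, 3586, 1257 and 3570 (5.24 ± 0.81, limma adjusted p = 3.2e-05). Cks2, a Cdk1-binding subunit, and the S-phase and mitotic cyclin Ccna2 both rose by nearly as much, 4.79 ± 0.95 and 4.78 ± 0.75. Ccna2 vehicle signals of 30.3 to 50.1 were followed by 951, 2179, 1090 and 1691. Stmn1, a microtubule-destabilising protein, rose from 358, 750, 397 and 453 to 3075, 7154, 3713 and 7634 (3.38 ± 0.45), and the nuclear lamina gene Lmnb1 from 404 ± 87.5 (SD, n = 4) to 2541 ± 1174 (SD, n = 4) (2.52 ± 0.31).

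**Figure D2:**
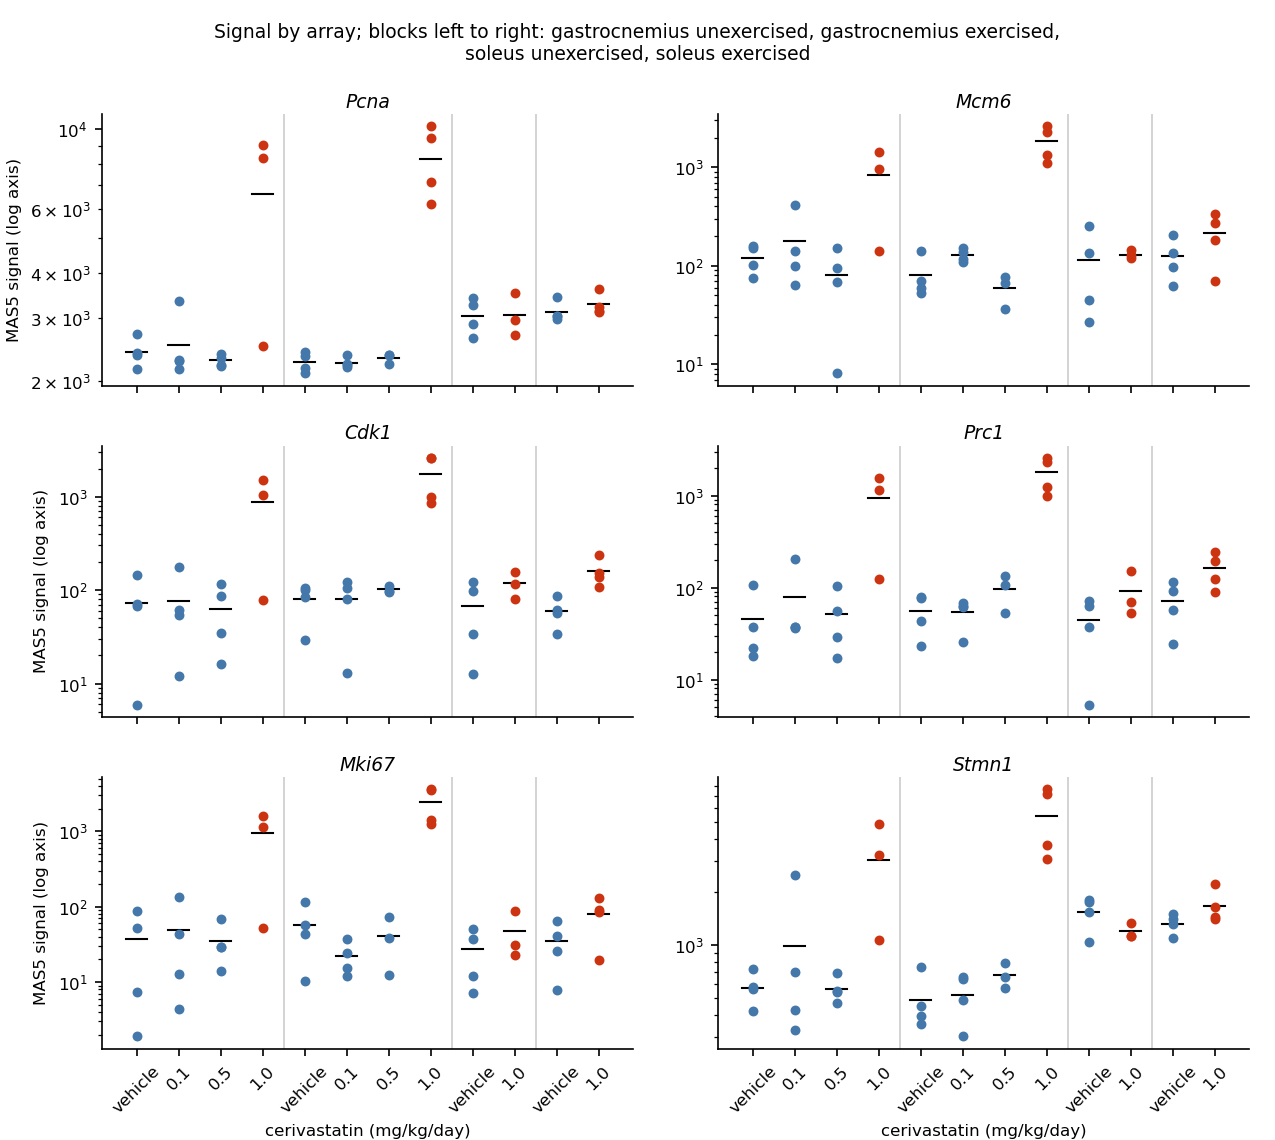
MAS5 signal (y axis, log scale) of Pcna, Mcm6, Cdk1, Prc1, Mki67 and Stmn1 on each array, by group (x axis, dose in mg/kg/day), with 1.0 mg/kg/day in red, other groups in blue and black bars at the group means. In exercised gastrocnemius all 4 arrays at 1.0 mg/kg/day lie above all other gastrocnemius arrays of exercised rats in each panel. In exercised soleus the top-dose arrays lie clear of vehicle for Cdk1 alone of the 6 genes.

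The highest of the 4 treated arrays was the same for most genes, while the lowest was not. Replicate 2 was the highest array for 41 of 45 genes and replicate 4 for the other 4, while replicate 1 was lowest for 24 and replicate 3 for 21. The median difference over the 45 genes was 2.52, 3.77, 2.72 and 3.56 on replicates 1 to 4. On the same arrays the median of 16 macrophage and myeloid markers was 3.53, 4.74, 4.16 and 5.02, and that of 10 muscle fibre markers was -0.65, -2.21, -0.51 and -1.77. The arrays with the highest cell-cycle signals thus had the highest macrophage and the lowest fibre marker signals, and the part of either in the result was not tested.

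All 16 macrophage markers were called higher in this comparison (median 4.51), and their summed signal was 7073 to 8853 in vehicle and 83017 to 194557 in treated muscle. The list holds genes such as Cd68, a lysosomal protein, and Csf1r, the receptor for a macrophage growth factor. Of 5 satellite cell and myoblast markers with a probe set 1 was called, Mymk, the myoblast fusion gene (1.72 ± 0.51), and Pax7, Myf5 and Megf10 were not represented. Endothelial markers were called in 1 of 7 cases, lymphocyte markers in 3 of 9 and fibroblast markers in 5 of 8, beside the 22.9% of all genes called higher. Fibre markers fell in 6 of 10 cases, against 17.7% of all genes called lower.

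**Figure D3:**
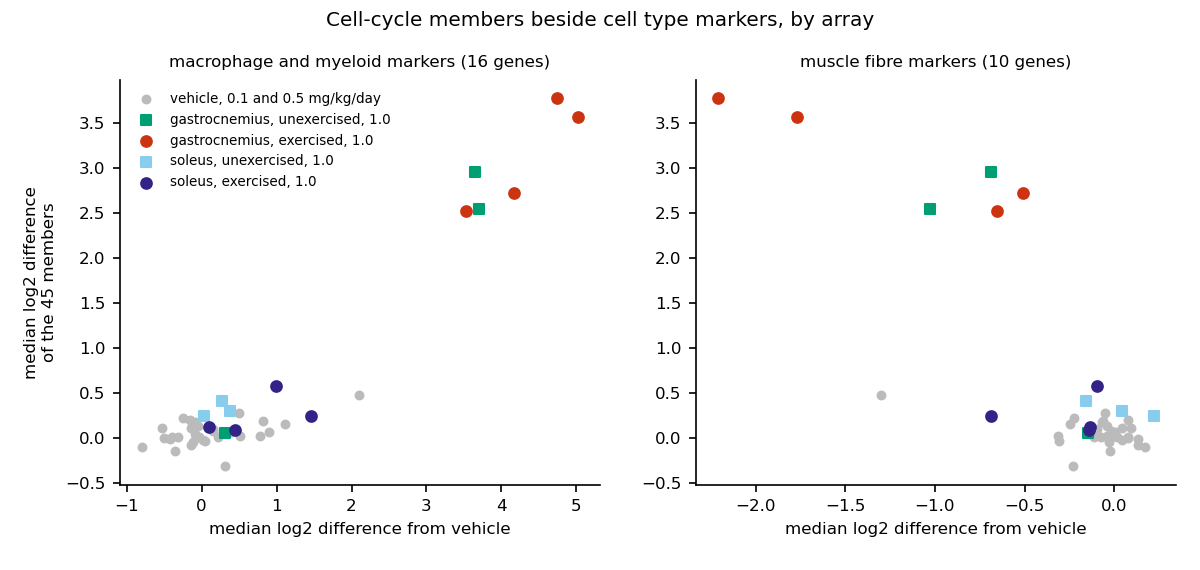
Median log2 difference from vehicle of the 45 cell-cycle genes (y axis) against that of 16 macrophage and myeloid markers (left) and 10 muscle fibre markers (right), 1 point per array, with the 1.0 mg/kg/day groups coloured and all others grey. The 6 gastrocnemius arrays with high cell-cycle values, between 2.52 and 3.77, also have macrophage values between 3.53 and 5.02, and replicate 3 of the unexercised group lies with the grey points.

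The gap between replication and mitosis genes was seen on each treated array, with the replication median below the mitosis median by 0.48, 0.91, 1.05 and 0.99 on replicates 1 to 4. Replication minus mitosis medians were 0.09, 0.07, -0.14 and -0.33 on exercised vehicle replicates 1 to 4. They reached -0.74 on unexercised replicate 3 at 0.5 mg/kg/day and 0.51 on exercised replicate 1 at 0.1 mg/kg/day. The gap of treated replicate 1 lay within that spread. In exercised rats the replication genes also differed by their signal in vehicle soleus, used in place of their own starting signal in gastrocnemius. Of the 11 replication genes 6 had a mean signal of 200 or more on the 8 vehicle arrays of soleus, which this comparison does not use, and these rose by a median of 1.90 (0.52 to 2.23). The other 5 (Ccne1, Mcm3, Mcm5, Mcm6 and Tyms) rose by a median of 3.83 (2.53 to 4.30). Of the mitosis genes 26 of 27 had a vehicle soleus mean below 200, and their median was 3.09 (1.33 to 4.71). In unexercised rats the replication genes with low and high vehicle soleus means had nearly the same median (1.27 and 1.12), and the 26 mitosis genes had 1.91. The limit of 200 was chosen after the values were seen.

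Many of the genes had low signals in vehicle muscle, and the size of their differences depends on the offset added. The mean in unexercised vehicle gastrocnemius was below 60.7, the 30th percentile of all signals, for 1 of 11 replication and 10 of 27 mitosis genes, and in exercised vehicle gastrocnemius for 2 and 7. None of the 45 genes had a mean below that level in either gastrocnemius group at 1.0 mg/kg/day.

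Probe sets of the same gene did not always move together. Of the 62 probe sets 56 were called higher, against 16.4% of all probe sets. Of 5 probe sets for Cdc20 2 were called (2.82 and 3.65), and the others read -0.12, 0.51 and -0.33. Of 3 each, 1 probe set of Tk1, 1 of Mad2l1 and 1 of Lmnb1 were not called (0.94, 1.13 and 0.69). Racgap1 and Ttk had a second, called probe set with larger differences than the one used (5.60 ± 0.88 and 4.01 ± 0.60), and that of Racgap1 exceeded Kif20a and Prc1. The same held for Top2a (3.51 ± 0.67) and Hmmr (2.32 ± 0.56).

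Promoter sequences show how the classes differ in the short elements known to bind cell-cycle regulators. In textbook terms, E2F proteins act on genes of S phase, while the CHR element with CCAAT boxes serves genes of G2 and mitosis. RefSeq promoters (build GRCr8, 250 bases before to 50 after the start) were found for 39 of the 45 genes, and Mcm4, Aurkb, Ube2c, Pbk, Racgap1 and Ccna2 had none in the table. On either strand, the CHR element (spelled TTTGAA, with TTCGAA as the other form searched) occurred in 17 of 23 mitosis promoters (73.9%), 3 of 10 replication promoters (30%) and 19.5% of all 27457 promoters of the same length. An E2F core (spelled TTCCCGC, with TTGGCGC as the second form searched and TTCGCGC as the last) occurred in 2 of 23 mitosis promoters (8.7%), 7 of 10 replication promoters (70%) and 7.97% of all. At least 2 CCAAT boxes (CCAAT) were found in 15 of 23 mitosis promoters (65.2%), 4 of 10 replication promoters (40%) and 11.3% of all.

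The 150 bases before the start are shown for picked examples of each class. The counts above are of the full promoters, and the classes were not compared over these shorter stretches. Capitals mark E2F, CCAAT and CHR matches on either strand, and overlapping matches run together, as the paired E2F cores of Mcm6, the E2F core and CCAAT box of Mcm7 and the CHR element and reversed CCAAT box of Mki67 do. Mcm6 lies at chr13:42404353-42404502 (minus strand), Mcm5 at chr19:13488663-13488812 (plus), Tyms at chr9:120776084-120776233 (minus) and Mcm7 at chr12:22163179-22163328 (minus).
Mcm6: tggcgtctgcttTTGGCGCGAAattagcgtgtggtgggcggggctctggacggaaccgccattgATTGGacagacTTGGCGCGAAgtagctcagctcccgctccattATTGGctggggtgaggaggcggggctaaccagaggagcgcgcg
Mcm5: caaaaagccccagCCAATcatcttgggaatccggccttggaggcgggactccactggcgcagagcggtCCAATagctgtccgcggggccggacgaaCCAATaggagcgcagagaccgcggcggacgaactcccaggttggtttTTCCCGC
Tyms: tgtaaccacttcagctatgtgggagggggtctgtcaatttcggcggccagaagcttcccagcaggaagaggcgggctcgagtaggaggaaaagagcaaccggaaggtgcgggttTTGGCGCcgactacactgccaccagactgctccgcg
Mcm7: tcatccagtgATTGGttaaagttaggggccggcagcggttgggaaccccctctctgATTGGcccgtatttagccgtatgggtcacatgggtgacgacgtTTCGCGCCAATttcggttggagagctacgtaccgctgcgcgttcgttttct

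The mitosis genes shown are Prc1 at chr1:143659331-143659480 (plus), Ccnb2 at chr8:79981659-79981808 (minus), Cdk1 at chr20:19265143-19265292 (plus) and Cdc20 at chr5:137255800-137255949 (minus). Mki67 at chr1:199952594-199952743 (minus) and Cks2 at chr17:13727520-13727669 (minus) stand for the further proliferation genes.
Prc1: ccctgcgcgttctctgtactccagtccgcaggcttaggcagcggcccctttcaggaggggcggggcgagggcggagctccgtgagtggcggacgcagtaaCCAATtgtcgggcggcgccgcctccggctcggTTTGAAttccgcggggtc
Ccnb2: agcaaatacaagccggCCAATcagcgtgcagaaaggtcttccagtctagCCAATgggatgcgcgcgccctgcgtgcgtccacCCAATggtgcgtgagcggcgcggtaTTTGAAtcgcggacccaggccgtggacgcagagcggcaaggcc
Cdk1: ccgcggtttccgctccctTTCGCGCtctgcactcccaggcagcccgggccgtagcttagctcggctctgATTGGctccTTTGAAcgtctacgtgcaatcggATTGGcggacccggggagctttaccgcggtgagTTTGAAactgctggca
Cdc20: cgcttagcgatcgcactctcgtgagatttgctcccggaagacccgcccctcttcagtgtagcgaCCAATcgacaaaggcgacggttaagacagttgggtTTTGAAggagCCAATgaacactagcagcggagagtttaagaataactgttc
Mki67: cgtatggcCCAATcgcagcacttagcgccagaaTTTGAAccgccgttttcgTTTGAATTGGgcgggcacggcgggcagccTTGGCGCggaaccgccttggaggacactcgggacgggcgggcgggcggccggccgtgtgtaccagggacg
Cks2: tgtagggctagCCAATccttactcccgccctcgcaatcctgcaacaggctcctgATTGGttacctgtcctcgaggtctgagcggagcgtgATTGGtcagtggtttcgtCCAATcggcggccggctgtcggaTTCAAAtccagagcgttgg

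Mcm6, Mcm5, Tyms and Mcm7 each carry an E2F core in these stretches and no CHR element, and Mcm6 and Mcm7, the replication genes with the largest and the smallest difference, both have E2F cores. Other members of the classes differ from the printed ones. In the full promoters Ccne1, Pcna and Tk1 had no E2F core. Mcm2, Rrm1 and Mcm7 had a CHR match, that of Mcm7 beginning at -241. Aurka, Bub1, Ccnb1, Cdca3, Kif11 and Kif20a had none. Ccnb2 has 3 CCAAT boxes in a row followed by a CHR element, and Cdk1 has an E2F core as well as CCAAT boxes and 2 CHR elements. Neighbouring CCAAT boxes on the same strand began 31 to 33 bases apart in 5 of 21 pairs in mitosis promoters (23.8%), in 0 of 5 in replication promoters and in 8.41% of pairs in all promoters. CHR matches of mitosis promoters began within 100 bases before and 50 after the start at 18 of 22 sites (81.8%), against 40.6% for all promoters. A match is a run of letters, and binding was not measured.

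In unexercised rats, 1.0 mg/kg/day raised 20 of 45 genes in the gastrocnemius, against 4.9% of all genes called higher, and no gene was called lower. All 45 differences were positive on the probe sets used, with medians of 1.25 for replication, 1.90 for mitosis and 2.84 for the further proliferation genes, and 0.04 over all genes. Called were 3 of 11 replication genes (Pcna, Mcm2 and Mcm6), 10 of 27 mitosis genes (Top2a, Kif11, Cdca3, Cdc20, Spc25, Kif20a, Ccnb2, Cdk1, Prc1 and Ect2) and 7 of 7 further genes. Other probe sets of Cdc20 were not called and read -0.64, 0.76, 0.09 and -0.32, and an uncalled one of Lmnb1 read -0.56. Ttk was uncalled on the probe set used but called on its second (2.77 ± 0.65, limma adjusted p = 0.0191). The result rested on replicates 1 and 2. Replicate 1 was the highest array for 42 genes and replicate 2 for 3, and both lay above every vehicle array for 45 of 45 genes. Replicate 3 was the lowest for all 45, lay within the vehicle range for 29, above it for 10 and below it for 6, and had a median difference of 0.06. Without replicate 1 or without replicate 2 none of the 45 genes was called, and without replicate 3 the count was 42. Without vehicle replicate 1, 2 or 3 it was 8, 7 and 7.

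Single genes show this split. Mki67 read 52.4, 7.4, 1.9 and 87.8 in unexercised vehicle and 1612, 1151 and 52.7 on replicates 1 to 3 at 1.0 mg/kg/day (3.76 ± 0.87, limma adjusted p = 0.0185). Pcna read 2399, 2363, 2168 and 2706 against 9065, 8340 and 2502 (1.25 ± 0.27, limma adjusted p = 0.0136). Cdk1 read 66.9, 144.5, 5.9 and 70.7 against 1519, 1049 and 77.9 (3.00 ± 0.82, limma adjusted p = 0.0352). In all 3 genes replicate 3 lay inside the vehicle range.

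A few genes were slightly above vehicle on replicate 3 as well. Prc1 read 18.1, 105.5, 22.1 and 36.9 in vehicle and 1563, 1148 and 124 at 1.0 mg/kg/day (3.66 ± 0.68, limma adjusted p = 0.0094). Ect2, an exchange factor for RhoA in cytokinesis, had the largest mitosis difference, 3.91 ± 0.70, with vehicle values of 5.0 to 46.3 and treated values of 1410, 781 and 64.2. Stmn1 read 421 to 729 in vehicle and 4855, 3241 and 1069 (2.16 ± 0.49). In all, 10 of 45 genes had no overlap between the groups, against 7.69% of all genes. Because replicates 1 and 2 lay above vehicle for every gene, that count was set by replicate 3 alone. It lies within the range of single unexercised arrays at 0.5 mg/kg/day, where no gene was called. Those had 12, 7, 10 and 6 genes above all vehicle arrays. Macrophage markers followed the same split, with medians of 3.65, 3.70 and 0.31 on replicates 1 to 3, and fibre markers read -0.69, -1.03 and -0.15. What part they had in the result was not tested. Actin 5' to 3' ratios of the 3 arrays were 0.423, 0.482 and 0.394.

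The other 25 genes were not called in unexercised rats on the probe sets used. Of those followed array by array, Aurkb (2.14 ± 0.70, limma adjusted p = 0.0674), Bub1b (2.23 ± 0.70, 0.0563), Mcm5 (1.28 ± 0.40, 0.0557), Tk1 (1.29 ± 0.40, 0.0533) and Ccnb1 (1.74 ± 0.54, 0.0574) lay just outside the threshold. Plk1 (0.96 ± 0.64), Hmmr (0.73 ± 0.49, and 1.36 ± 0.60 on its second probe set), Rrm1 (0.41 ± 0.25) and Mcm7 (0.24 ± 0.20) had the smallest differences. Rrm1 and Mcm7 were also the replication genes that moved least in exercised rats.

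**Figure D4:**
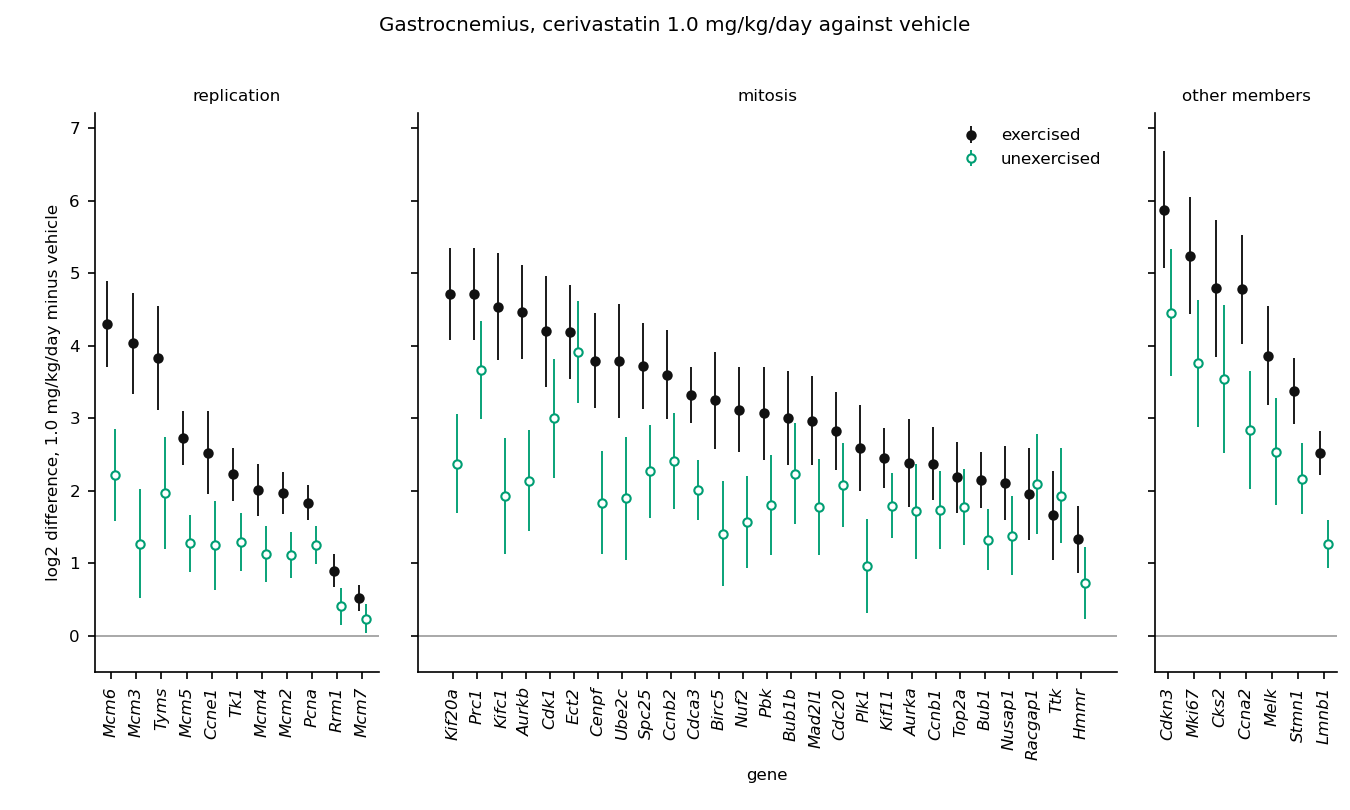
Log2 difference between 1.0 mg/kg/day and vehicle in gastrocnemius (y axis, bars are SE) for each of the 45 genes (x axis), in exercised (filled) and unexercised (open) rats, by class and ordered by the exercised value. Cdkn3 is highest in both, at 5.87 and 4.46, and Mcm7 lowest in both, at 0.52 and 0.24.

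Exercise did not separate the drug's effect on these genes beyond the spread of the arrays. At 1.0 mg/kg/day all 45 genes were higher in exercised than in unexercised rats, with a median of 1.34, but the arrays of the groups overlapped for every gene (2.74% of all genes lay higher without overlap) and limma called 0 (30 at an unadjusted p under 0.05). It also called 0 of all 14217 genes higher. Unexercised replicate 3, the lowest array of its group for all 45 genes, lowers that group's mean here and in the interaction. Median differences from vehicle were 2.95, 2.55 and 0.06 on unexercised replicates 1 to 3. On exercised replicates 1 to 4 they were 2.52, 3.77, 2.72 and 3.56. The interaction, which asks whether the drug's difference depends on exercise, had a median of 1.22 and was positive for 43 of 45 genes. It was called for 0 genes, with 8 at an unadjusted p under 0.05, and for 0 of all 14217 genes. By the probe sets used, the largest interactions were those of Mcm3 (2.76 ± 1.02), Kifc1 (2.61 ± 1.09) and Kif20a (2.34 ± 0.93). Ttk (-0.27 ± 0.89) and Racgap1 (-0.13 ± 0.94) were negative, but their second probe sets were positive (1.23 ± 0.88 and 3.32 ± 1.29), the latter above Mcm3. Another probe set of Cdc20 also lay above Mcm3 (2.90 ± 1.06, not called).

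Running alone raised or lowered none of the genes past the threshold. Between exercised and unexercised vehicle gastrocnemius 0 of 45 genes were called by limma (0 at an unadjusted p under 0.05), with a median of 0.16. Of all 14217 genes 0 were called higher. Nusap1, Ect2 and Cdkn3, named after their values were seen, did not overlap, against 1.47% of all genes. Cdkn3 read 3.7 to 8.7 on the unexercised vehicle arrays, at the bottom of the scale, and 9.1 to 65.9 on the exercised ones.

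At the lower doses no gene was called. The median over the 45 genes was 0.06 and 0.01 at 0.1 and 0.5 mg/kg/day without exercise and -0.06 and 0.03 with exercise. In limma's fit 0 were called in each of these 4 comparisons (0, 0, 3 and 0 at an unadjusted p under 0.05), as were 0 of all genes. Mki67, for example, read 12.2, 36.9, 24.4 and 15.2 at 0.1 mg/kg/day and 38.1, 72.3 and 12.3 at 0.5 mg/kg/day in exercised rats. Set against 0.5 mg/kg/day instead of vehicle, 1.0 mg/kg/day raised 44 of 45 genes in exercised rats (21.5% of all genes were called higher) and 18 of 45 in unexercised rats (5.27% of all). Hmmr was the exception in exercised rats (1.08 ± 0.49, limma adjusted p = 0.107). The 18 became 0 without unexercised replicate 1 or 2 at 1.0 mg/kg/day and 40 without replicate 3, and 6, 10, 10 and 11 without single arrays of the 0.5 mg/kg/day group.

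One array at 0.1 mg/kg/day stood apart. Unexercised replicate 3 had 21 of 45 genes above all vehicle arrays, where the other 3 had 6 to 9, and its median was 0.27 for replication, 0.58 for mitosis and 2.01 for the further proliferation genes. Stmn1 read 2498 there against 331 to 707 on the other 3 arrays, and Prc1 206 against 35.9 to 37.5. The same array had the lowest actin ratio of the series, macrophage and endothelial marker medians of 2.10 and 2.45 and a fibre marker median of -1.30. Their part in its values was not tested.

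In soleus no gene was called. At 1.0 mg/kg/day the median over the 45 genes was 0.26 with exercise and 0.27 without, with 35 of 45 positive in both, and limma called 0 genes in either (2 and 3 at an unadjusted p under 0.05). Of all 14217 genes 0 were called higher in either comparison as well. Cdk1 had the clearest difference with exercise, from 57.3, 61.6, 86.7 and 33.6 in vehicle to 109, 139, 152 and 238 (1.25 ± 0.48, limma adjusted p = 0.898). It and Ccnb1 were the genes without overlap, as were 1.69% of all genes. Cdkn3 read 9.7 to 18.3 in vehicle and 124, 21.7, 6.7 and 200.5 (1.37 ± 0.61), so that 2 arrays were high and 1 was below vehicle. Pcna had a small difference, with 3037, 3436, 3045 and 2977 in vehicle and 3607, 3139, 3119 and 3222 at 1.0 mg/kg/day (0.07 ± 0.12). Replicates 4 and 1 of that group had 28 and 18 of 45 genes above all vehicle arrays and macrophage marker medians of 0.99 and 1.46, against 9 genes each and 0.10 and 0.44 on replicates 2 and 3. The part of those markers was not tested.

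Without exercise, Mcm5 (0.88 ± 0.32), Cks2 (1.16 ± 0.52) and Cdkn3 (1.24 ± 0.66) of the soleus lay above vehicle on all 3 treated arrays and Aurkb below it on all 3 (-1.07 ± 0.50), none of them called. Of all genes 1.89% lay above and 1.9% below vehicle without overlap. Running alone called 0 of 45 genes in soleus (1 at an unadjusted p under 0.05, median 0.19). The interaction of running and drug in soleus also called 0 (1 at an unadjusted p under 0.05). For running alone and for the interaction, 0 of all 14217 genes were called higher.

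The difference between the muscles was itself tested. In exercised rats the drug's difference was smaller in soleus than in gastrocnemius for all 45 genes, and 39 of 45 were called, against 13.1% of all genes called in this direction. These were 9 of 11 replication genes (median -2.22), 23 of 27 mitosis genes (median -2.90) and 7 of 7 further genes (median -4.00). The largest gaps were those of Kifc1 (-5.36 ± 1.00, limma adjusted p = 5.6e-04), Cdkn3 (-4.51 ± 1.09), Ccna2 (-4.41 ± 0.97) and Mki67 (-4.28 ± 1.06). Tyms (limma adjusted p = 0.059), Mcm7, Ttk, Racgap1, Aurka and Hmmr were not called on the probe sets used. On their second probe sets Ttk, Racgap1 and Hmmr had gastrocnemius differences of 4.01, 5.60 and 2.32. The soleus differences of those probe sets were 0.97, 1.27 and -0.32. With single arrays left out, 30 to 40 genes were called. In unexercised rats limma called 0 of 45 (21 at an unadjusted p under 0.05, median -1.65, 0.00703% of all genes called lower), and 32 without gastrocnemius replicate 3 at 1.0 mg/kg/day.

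**Figure D5:**
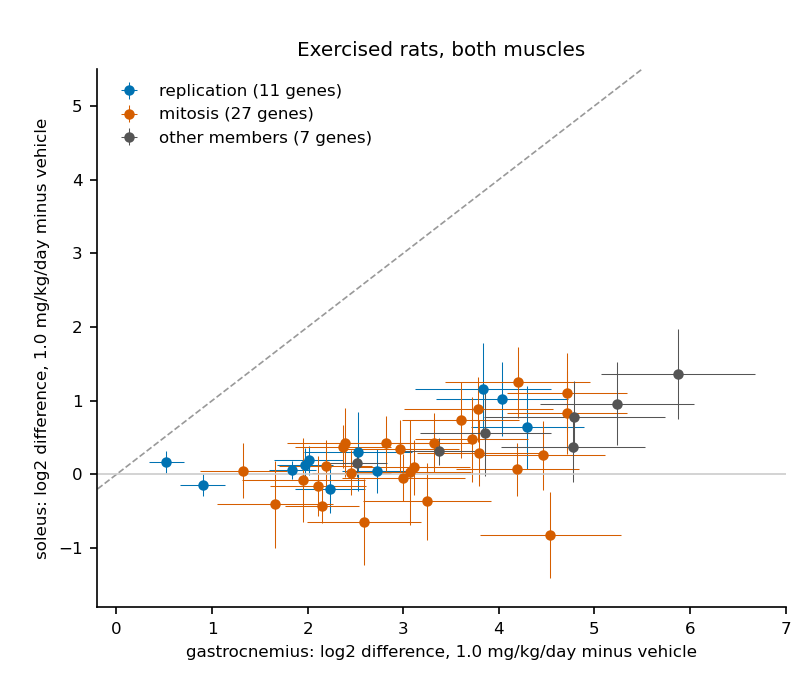
Log2 difference between 1.0 mg/kg/day and vehicle in soleus (y axis) against gastrocnemius (x axis) of exercised rats, 1 point per gene with SE bars, coloured by class, and a dashed line where both would be equal. All 45 points lie below the line, with soleus values between -0.82 and 1.37.

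In vehicle rats the muscles differed in few of these genes. Stmn1 was higher in soleus in both states, at 1804, 1049, 1746 and 1548 against 729, 568, 575 and 421 without exercise (1.40 ± 0.39, limma adjusted p = 0.0343) and by 1.47 ± 0.39 with exercise (adjusted p = 0.0147). Kifc1 was higher in exercised soleus, at 130, 185, 199 and 91.3 against 7.9, 24.2, 31.8 and 34.4 (2.16 ± 0.71, limma adjusted p = 0.0496). These were 1 and 2 of 45 genes, against 2.6% and 5.49% of all genes called higher in soleus. The unexercised Stmn1 call was lost without any 1 of 6 arrays (gastrocnemius replicates 2, 3 and 4 and soleus replicates 1, 3 and 4). Of the exercised calls 0 were left without gastrocnemius replicate 1 and 1 without any other single array.

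Other genes of the pathway, on lists that partly draw on earlier results of these data, moved in the same comparisons. In exercised gastrocnemius at 1.0 mg/kg/day 30 of 42 further replication genes were called higher and 0 lower, with a median of 1.58, where 22.9% of all genes were called higher. The largest were Uhrf1, which directs DNA methylation to new strands (4.30 ± 0.74), the checkpoint kinase Chek1 (3.30 ± 0.67) and the chromatin assembly factor Chaf1a (3.05 ± 0.55). Of 53 further mitosis genes 41 were called higher and 0 lower, with a median of 2.31, led by the kinetochore gene Spc24 (4.30 ± 0.61) and the kinesins Kif23 (3.89 ± 0.71) and Kif18b (3.85 ± 0.61). In unexercised rats the counts were 6 of 42 higher and 1 lower (Rpa1, -0.72 ± 0.20), and 9 of 53 higher, where 4.9% of all genes were called higher and 2.36% lower.

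Of 17 inhibitors, pocket proteins and arrest genes 6 were called higher and 5 lower in exercised gastrocnemius, beside 22.9% and 17.7% of all genes. The pocket protein Rbl1 (4.07 ± 0.73), the Cdk4 inhibitor Cdkn2c (2.01 ± 0.51) and the stress gene Gadd45a (1.63 ± 0.54) rose. The cyclins Ccng1 (-1.70 ± 0.37) and Ccng2 (-0.72 ± 0.23) and the inhibitor Cdkn1c (-1.42 ± 0.29) fell. Among 6 drivers of G1, 4 were called higher, with the transcription factor Myc at 3.10 ± 0.56, the cyclin Ccnd1 at 1.84 ± 0.42 and its kinase Cdk4 at 1.75 ± 0.27. In unexercised rats Myc (2.69 ± 0.61), Cdk4 (1.10 ± 0.29) and Cdkn2c (1.85 ± 0.55) were called higher and the pocket protein Rbl2 lower (-0.88 ± 0.25).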

How the data were processed

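RNA of 45 muscle samples was hybridised to Affymetrix rat arrays. The deposited values are probe set intensities on a linear scale, made by the authors with MAS5, per the submitters' processing notes, and the version is not given in the sources used here. Each array's mean after trimming 2% was between 600.2 and 600.31, so arrays had been scaled alike. The precision is limited by the number of arrays.

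Of 31099 probe sets 57 controls were left out. Gene names came from the platform annotation, in which 20826 probe sets had 1 symbol, 436 several and 9780 none. Values were tested as log2(value + 12.4), the offset being the 10th percentile of all values, with no expression filter, in limma 3.58.1 (R 4.3.3; lmFit, contrasts.fit, eBayes with a mean-dependent prior) and Benjamini-Hochberg adjustment over 31042 probe sets. Comparisons within gastrocnemius used 30 arrays, within soleus 15, and between muscles 45. In all 19 comparisons were made. The procedure was tested on simulated data.

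Per-array values are given for a listed set of 25 genes, of which 23 had a probe set, and in each comparison also for the 3 genes of a class with the largest and smallest differences. Members and lists were chosen with earlier results of these data known. The signal limit of 200, the CCAAT spacing and CHR windows and the promoters printed were chosen after values were seen. Replicates are labelled biological. No 2 arrays held identical values. Alternatives tried were the offset, an expression filter, the scaling, the prior, the arrays fitted, array weights, low actin ratios, the replicate number as a block, the probe set rule and leaving out each array.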

Additional observations from a re-analysis of the deposited data

Results flagged for a closer look

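The difference between the muscles in exercised rats stands out because the drug's change was tested to differ between them for 39 of 45 genes. Values are soleus minus gastrocnemius differences on the log2 scale, and 22 of the 23 genes followed array by array were called in limma's fit. Among replication genes they were -1.77 for Pcna, -2.68 for Mcm5, -3.66 for Mcm6, -1.04 for Rrm1, -2.43 for Tk1 and -2.22 for Ccne1. Among mitosis genes they were -2.08 for Top2a, -1.99 for Ccnb1, -2.94 for Cdk1, -3.61 for Birc5, -2.40 for Cdc20, -4.20 for Aurkb, -3.23 for Plk1, -3.60 for Prc1, -2.43 for Kif11, -3.04 for Bub1b and -2.62 for Mad2l1. Among further proliferation genes they were -4.28 for Mki67, -4.41 for Ccna2, -4.00 for Cks2, -3.06 for Stmn1 and -2.37 for Lmnb1. All 16 macrophage markers were also called lower in this comparison, and their part was not tested.

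Of 243 sets of 4 arrays examined, 12 had 1 array far from the others, and chance gives about 1 in 20. In unexercised gastrocnemius, low-dose replicate 3 was high for Prc1 (205.9), for Pcna (3347) and for the median difference of the further proliferation genes (2.01). Vehicle replicate 2 was high for Tyms (82.8) and middle-dose replicate 4 for Cks2 (62.2). In exercised low-dose gastrocnemius, replicate 1 was low for Birc5 (72.7) and Mad2l1 (12.3), and replicate 3 for Prc1 (25.6). In unexercised vehicle soleus, replicate 1 was low for Top2a (49.9) and replicate 4 for Ccna2 (8.7). In exercised vehicle soleus, replicate 2 was high for Pcna (3436), and replicate 3 was low for the replication minus mitosis median (-0.52).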

How the results depend on the processing

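No called gene and no class median followed across the alternatives reversed its direction. Directions of uncalled differences were not followed. For exercised gastrocnemius at the top dose, the expression filter left 39 genes and all 39 were called. Over the other alternatives 43 to 45 of 45 genes were called, and 41 to 45 with single arrays left out. The mitosis median was 2.41 with an offset at the 30th percentile. Centring arrays on their medians moved the median of all genes in that comparison from -0.0015 to -0.10. The unexercised counts depended on the fit. Against vehicle the 20 calls became 9 without a mean-dependent prior, 0 with only the groups compared and 44 with array weights, and ranged from 0 to 42 with single arrays left out. Against 0.5 mg/kg/day the 18 became 0 and 45 under the same fit of groups compared and array weights, and 0 to 40 with arrays left out. Array weights also gave 1 call between exercised and unexercised rats at the top dose and 38 for the unexercised difference between muscles, which was 3 without the 3 arrays of lowest actin ratio and 0 to 32 with arrays left out. Between vehicle muscles 0 or 1 gene was called in either exercise state with single arrays left out, and the 2 exercised calls became 1 under the 30th-percentile offset, median centring, quantile scaling, no mean-dependent prior and the mean of all probe sets. The mitosis median in exercised soleus ranged from 0.034 to 0.31 with arrays left out.

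Same-numbered arrays did not deviate together on average within a muscle (mean correlation 0.0059 in gastrocnemius and 0.015 in soleus). Single pairs ranged from -0.375 to 0.435 in gastrocnemius (15 of 99 over 0.1) and from -0.359 to 0.367 in soleus (9 of 21). Between muscles of the same treatment the mean was 0.0068, with 3 of 15 pairs over 0.1. The numbers were thus not taken to pair samples. Sample titles do not say whether both muscles came from the same rats, and tests between muscles treated all 45 arrays as independent. With the replicate number as a block 45 genes were called in exercised and 16 in unexercised top-dose gastrocnemius, 38 for the exercised difference between muscles, and 1 of 2 between exercised vehicle muscles. Vehicle signals of genes such as Cdkn3 and Tyms lay near the lower end of the scale, so the size of their differences depends on the offset.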
